A study of Mus musculus with 12 samples.

Results

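The comparison described here is that of 5Aza with saline in the partially ligated left carotid artery (LCA) of the mouse. Its members are the 6 samples, of 12 in the series, that the labels give as ligated left carotids: 3 from mice given 5Aza (5Aza LCA 1, 2 and 4) and 3 from mice given saline (saline LCA 1, 2 and 4), numbered as in their titles. For some samples the description gives another replicate number than the title. All 10596 genes that were detected on the 3 arrays of at least 1 group were tested. The mice of both groups were male C57Bl6, given as 9 weeks old in the sample labels and as 6 to 8 weeks old in the design text. 5Aza is 5-aza-2'-deoxycytidine, an inhibitor of DNA methylation, injected daily into the peritoneum at 0.2 mg/kg/day for 3 weeks, and the controls were injected with saline. After 2 weeks of injections, 3 of the 4 caudal branches of the LCA were tied off in mice of both groups, which leaves the artery with low and oscillating flow, and tissue was taken 7 days later. The right carotid artery (RCA) was not ligated and supplied the other 6 samples, so no sham-operated left carotid enters the comparison. Each sample was total RNA washed from the lumen of 3 pooled arteries with a lysis reagent, a preparation enriched for the intima, the endothelial lining. The labels do not say whether pools came from separate sets of mice, and p-values therefore measure the spread between these pools. RNA was measured on Illumina mouse bead arrays.

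DNA methylation at CG dinucleotides is copied to the new strand at each cell division by the maintenance enzyme Dnmt1 and laid down on unmethylated sites by Dnmt3a and Dnmt3b. 5-aza-2'-deoxycytidine is incorporated into DNA during replication and traps these enzymes there, so that methylation is lost from the daughter strands of dividing cells. Arterial endothelium under steady laminar flow expresses transcription factors such as Klf2 and Klf4 and the nitric oxide synthase Nos3, and disturbed flow lowers them and raises adhesion molecules that recruit monocytes.

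Because the drug acts through CG dinucleotides, the proximal promoters of 4 genes that the comparison turned on are shown, as the 250 bases before the transcription start in RefSeq, build GRCm38.p6, 5′ to 3′ on the strand of the gene, with every CG in capitals. Adipoq was detected in the ligated artery after 5Aza and not after saline, Cxcl10 was among the most stable decreases, Hoxa5 is a gene the study itself followed, and Prrt4 is a called gene whose levels in the ligated and unligated arteries were far apart.
Adipoq chr16:23146286-23146535, plus strand: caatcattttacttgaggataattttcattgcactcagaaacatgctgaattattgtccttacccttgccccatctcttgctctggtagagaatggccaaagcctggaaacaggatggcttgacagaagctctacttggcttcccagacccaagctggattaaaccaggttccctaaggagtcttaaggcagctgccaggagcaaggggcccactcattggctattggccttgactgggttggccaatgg
Cxcl10 chr5:92348890-92349139, minus strand: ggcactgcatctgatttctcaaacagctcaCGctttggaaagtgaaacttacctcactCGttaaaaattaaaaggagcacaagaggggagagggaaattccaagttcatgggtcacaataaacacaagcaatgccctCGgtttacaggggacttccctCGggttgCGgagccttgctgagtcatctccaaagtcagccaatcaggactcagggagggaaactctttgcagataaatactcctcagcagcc
Hoxa5 chr6:52204588-52204837, minus strand: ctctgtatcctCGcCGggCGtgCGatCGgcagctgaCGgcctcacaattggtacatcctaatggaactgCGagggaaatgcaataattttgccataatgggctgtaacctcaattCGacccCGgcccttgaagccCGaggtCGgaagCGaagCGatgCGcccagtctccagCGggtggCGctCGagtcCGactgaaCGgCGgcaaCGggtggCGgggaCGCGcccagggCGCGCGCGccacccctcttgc
Prrt4 chr6:29179585-29179834, minus strand: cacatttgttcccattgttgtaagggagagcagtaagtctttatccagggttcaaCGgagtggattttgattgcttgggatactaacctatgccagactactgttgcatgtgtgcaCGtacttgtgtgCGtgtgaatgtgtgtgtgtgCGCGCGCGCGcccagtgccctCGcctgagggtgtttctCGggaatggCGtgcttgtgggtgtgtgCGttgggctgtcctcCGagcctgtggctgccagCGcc
The motif searched was CG, which reads the same on both strands. The Adipoq window held 0, the Cxcl10 window 5, the Prrt4 window 14 and the Hoxa5 window 28. Over the 8570 tested genes with a listed promoter (80.88%), the median was 16, and 98.6% of windows held at least 1 CG. As many as in Hoxa5 or more were found in 13.8% of windows, and as few as in Cxcl10 or fewer in 15.2%. Windows were listed for only 36 of the 49 called genes (73.47%), so a comparison of called with other genes is void. DNA methylation was not analysed here.

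Levels below are background-corrected, quantile-normalized probe intensities on the log2 scale, 1 probe per gene, and "detected" means a detection p-value under 0.05. Between 21443 and 23251 of 45281 probes were detected per array, and the number of arrays limits the precision. Checked against the tissue label, endothelial markers were present: of 24 on the array, 22 were detected on all 6 LCA arrays. Of 21 macrophage markers 14 were too, as were 9 of 13 fibroblast, 7 of 12 smooth muscle and 3 of 13 adipocyte markers. Saline LCA 1 stood apart from its group: the correlation of its levels over genes was r = 0.857 with saline LCA 2 and 0.856 with saline LCA 4, while these other arrays had r = 0.971 between them. Its r with the 5Aza LCA arrays was 0.924 to 0.940. Per the labels the 12 samples were run on 2 microarrays, and the sources used here do not assign samples to them, so a microarray effect was not tested. What sets saline LCA 1 apart was not tested, and every value of the comparison rests on its label being right. Counts within gene lists are given with and without it.

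Whether 5Aza altered RNA levels in the ligated artery was asked by comparing 5Aza LCA with saline LCA. Grouped after their values were seen, genes of lipid synthesis and fat cells were among those higher after 5Aza, and genes of leukocytes and of cell division among those lower. Genes of the extracellular matrix were found in both directions. With a Benjamini-Hochberg adjusted p under 0.05 in limma as the rule for a call, 49 genes were called, 0.462% of those tested. Of these, 31 were higher (0.293%) and 18 lower (0.17%) after 5Aza. In all 49 the 3 arrays of 1 group lay above the 3 of the other, as they did for 10.3% of all genes tested in the higher and 8.02% in the lower direction. Log2 fold changes of the called genes ranged in size from 0.97 to 4.16, and their adjusted p from 0.00972 upward. The median log2 fold change over all genes was 0.04. At an unadjusted p under 0.05 there were 1971 genes. The spread of each gene was estimated over all 12 arrays, and 0 genes were called when only the 6 compared samples were fitted. Without saline LCA 1, 10.9% of genes were called higher and 8.47% lower, and all 49 genes were among these 2051. The spread of log2 fold changes against p is shown in the volcano plot.

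**Figure D1:**
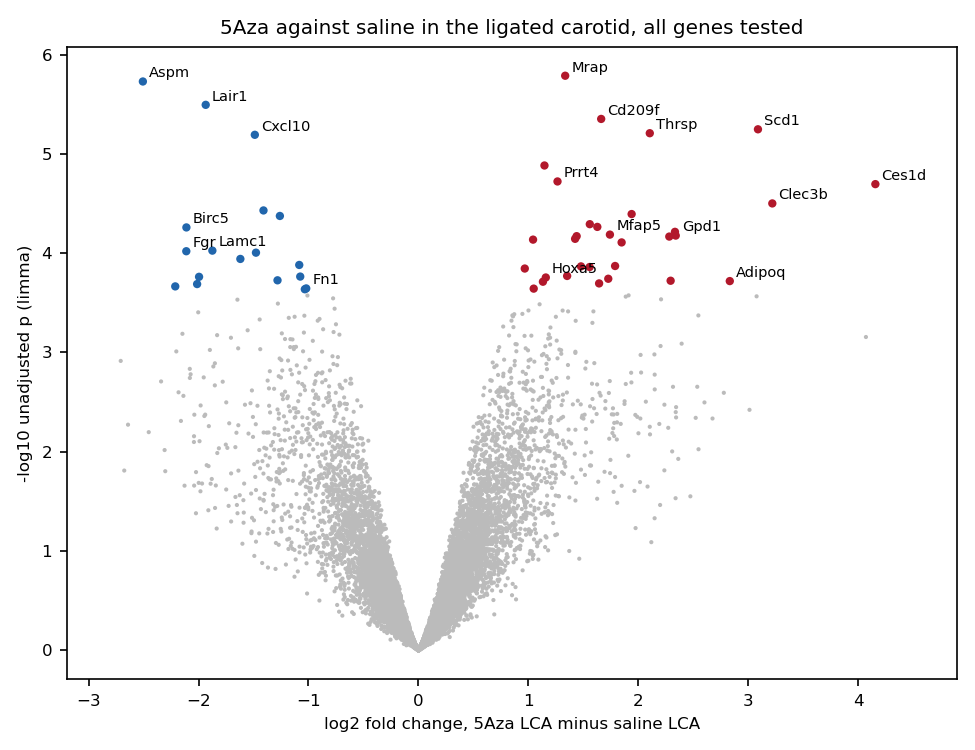
Each point is 1 of the 10596 genes tested, with the log2 fold change (5Aza LCA minus saline LCA) on the x axis and -log10 of the unadjusted limma p on the y axis. Red points are the 31 genes called higher, blue points the 18 called lower, and grey points the others. Ces1d lies farthest to the right among all genes at 4.16, and Aspm farthest to the left among the called genes at -2.51.

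Genes of fat cells and of fatty acid synthesis were among the largest increases. Ces1d, a carboxylesterase that acts as a lipase in adipocytes, stood at 7.41, 8.38 and 9.46 in 5Aza LCA 1, 2 and 4 and at 4.32, 4.22 and 4.23 in saline LCA 1, 2 and 4. Every 5Aza array lay far above every saline array, on none of which Ces1d was detected. The increase of the group mean was therefore at least 15.5-fold (log2 fold change 4.16, SE 0.61, limma adjusted p = 0.0214), the bound being taken against the lowest detected signal of the saline arrays. Its probe may be shared by near-identical carboxylesterase copies, which was not tested.

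Adipoq, which encodes the adipocyte hormone adiponectin, was at 6.04, 6.83 and 8.44 in the 5Aza arrays and at 4.25, 4.29 and 4.28 in the saline arrays. It was detected on all of the former and none of the latter, and 5Aza LCA 4 was the highest. It rose at least 6.24-fold (log2 fold change 2.83, SE 0.53, limma adjusted p = 0.0478).

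Scd1, the stearoyl-CoA desaturase, was at 9.08, 9.81 and 10.02 after 5Aza and at 7.59, 6.02 and 6.03 after saline. The groups did not overlap, and saline LCA 1 was the saline array nearest to the 5Aza arrays. Scd1 rose by 3.09 (SE 0.40, limma adjusted p = 0.00972), and by 3.61 when saline LCA 1 was left out. Thrsp, a regulator of lipogenic enzymes, was at 5.74, 6.12 and 7.07 against 4.19, 4.18 and 4.25. It was undetected on every saline array and rose at least 3.6-fold (limma adjusted p = 0.00972).

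Further genes of lipid and glycerol metabolism rose. Gpd1, the cytosolic glycerol-3-phosphate dehydrogenase, was at 6.11, 6.33 and 7.82 against 4.52, 4.29 and 4.44 (log2 fold change 2.34, SE 0.39, limma adjusted p = 0.0322). Acss2, which makes acetyl-CoA from acetate, was at 5.98, 6.54 and 7.36 against 5.25, 4.38 and 5.06 (log2 fold change 1.73, adjusted p = 0.0478). In both genes the highest array was 5Aza LCA 4. Rbp4, the plasma carrier of retinol, which adipocytes also secrete, was at 5.87, 6.37 and 6.72 against 5.00, 4.33 and 4.27 (log2 fold change 1.79, adjusted p = 0.0443). Of the 14 adipocyte markers listed, 13 were on the array and 8 were tested. Of these 8, 4 were called higher (Ces1d, Adipoq, Thrsp and Scd1), 0 lower, and 4 did not pass, where 0.293% of all genes were called higher. Their median log2 fold change was 2.23, beside 0.04 over all genes. The count was 5 higher when saline LCA 1 was left out, where 10.9% of all genes were, with the triglyceride lipase Pnpla2 (1.57, adjusted p = 0.00553) added, and the median 1.83. The fatty acid carrier Fabp4 had a log2 fold change of 2.36 with groups that did not overlap, and its adjusted p was 0.153.

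The mean level of the 8 adipocyte markers was 6.70, 7.13 and 7.99 in 5Aza LCA 1, 2 and 4 and 5.23, 5.25 and 5.38 in saline LCA 1, 2 and 4. It ran from 5.42 to 6.04 in saline RCA and from 5.52 to 6.29 in 5Aza RCA. The 5Aza LCA arrays were thus the 3 highest of the 12. Ces1d, Adipoq, Thrsp and Pparg, however, were detected on all 3 arrays of 5Aza LCA alone, and entered the list through that group. The mean, the median and the count of calls of the list are therefore in part set by the filter. Of the markers too dim to be tested, the leptin gene Lep, the lipid droplet gene Cidec and the brown fat uncoupler Ucp1 were each detected on 2 5Aza LCA arrays and on 0 saline LCA arrays, and the lipid droplet coat gene Plin1 on 1 and 0. The resistin gene Retn was detected on none of the 12 arrays. In pooled tissue, a change in the number of cells of a type cannot be told apart from a change in RNA per cell. The part of carried-over fat tissue in the increases of lipid genes was not tested. With the adipocyte level of each array as a covariate, a fit chosen after the data were seen and whose covariate contains these genes, 0 genes were called.

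Several genes of the extracellular matrix rose as well. Clec3b, which encodes the plasminogen-binding protein tetranectin, was at 8.66, 9.07 and 7.76 in 5Aza LCA 1, 2 and 4 and at 6.68, 4.58 and 4.57 in saline LCA 1, 2 and 4. The groups did not overlap, although saline LCA 1 lay nearer to the lowest 5Aza array than to the other saline arrays. Clec3b rose by 3.22 (SE 0.49, limma adjusted p = 0.0304), and by 3.92 without saline LCA 1. Mfap5, a component of elastin-associated microfibrils, was at 6.43, 6.17 and 6.63 against 5.47, 4.30 and 4.24, with detection on 1 of the 3 saline arrays (log2 fold change 1.74, SE 0.29, limma adjusted p = 0.0322). Abi3bp, a matrix protein that binds collagen, was at 7.67, 7.67 and 6.69 against 5.67, 4.68 and 4.79 (log2 fold change 2.29, adjusted p = 0.0478). Coch, the matrix protein cochlin, was at 5.99, 6.77 and 6.46 against 4.94, 4.24 and 4.22 (log2 fold change 1.94, adjusted p = 0.0319). All 4 genes had saline LCA 1 as the highest saline array.

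Of the 13 fibroblast markers tested, 12 did not pass, 1 (Mfap5) was called higher and 0 lower, beside 0.293% and 0.17% of all genes. The median log2 fold change was 0.80, and 6 of the 13 had groups that did not overlap, all 6 higher after 5Aza, beside 10.3% of all genes. When saline LCA 1 was left out, 6 were called higher and 0 lower, beside 10.9% and 8.47% of all genes, with a median of 0.64. The mean level of the list was 7.94, 7.96 and 7.62 in 5Aza LCA and 7.24, 6.75 and 6.40 in saline LCA. The 5Aza arrays were all above the saline arrays, and the part of a different number of fibroblasts in the increases of single matrix genes was not tested.

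The other genes among the 15 largest increases had diverse roles. Amy2a5, a pancreatic amylase gene with near-identical copies, was at 7.11, 6.88 and 6.97 against 5.54, 4.19 and 4.23 (log2 fold change 2.33, limma adjusted p = 0.0322). Klhdc8b, a kelch-domain gene, was at 8.15, 6.72 and 6.68 against 4.94, 5.17 and 4.58 (log2 fold change 2.28, adjusted p = 0.0322). In Amy2a5 the 5Aza arrays lay close together, whereas in Klhdc8b 5Aza LCA 1 stood above the others. Ntrk2, the receptor of the neurotrophin BDNF, was at 5.83, 6.57 and 6.43 against 4.88, 4.20 and 4.20 (log2 fold change 1.85, adjusted p = 0.033). Cd209f, a C-type lectin gene with close copies, was detected on all 5Aza and no saline arrays and rose at least 2.72-fold (adjusted p = 0.00972).

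Hoxa5, a homeobox transcription factor of positional identity, is a gene that the study singled out in work on flow and methylation. It was at 7.95, 8.04 and 7.87 in 5Aza LCA 1, 2 and 4 and at 7.05, 6.54 and 6.79 in saline LCA 1, 2 and 4. The 5Aza arrays lay within a narrow band above all saline arrays. Hoxa5 averaged 7.95 ± 0.08 against 6.79 ± 0.26 (SD, n = 3 each) and rose by 1.16 (SE 0.22, limma adjusted p = 0.0478). Its levels in the unligated RCA, 8.13, 8.19 and 8.24 after saline and 8.37, 8.50 and 7.73 after 5Aza, overlapped with each other. The Hoxa5 promoter shown above holds 28 CG. Of 38 Hox genes on the array 15 were tested. Hoxa5 was the 1 called higher, 0 were called lower and 14 did not pass, beside 0.293% and 0.17% of all genes called higher and lower. The list's median was 0.33. The choice of Hoxa5 comes from knowledge of the study and is not independent evidence of its direction. Of 9 genes recalled from the study as methylated under disturbed flow, Hoxa5 included, 1 was called higher and 8 did not pass. Over all genes 0.293% were called higher. The median of the 9 was 0.41. Without saline LCA 1, 4 of them (Hoxa5, Pkp4, Spry2 and Tmem184b) were called higher. So were 2 of the 15 Hox genes (Hoxa3 and Hoxa5), beside 10.9% of all genes.

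A further 15 genes were called higher and lay outside the rule for naming, so they are named here after their values were seen. Undetected on every saline LCA array were Inmt, an N-methyltransferase of indoleamines (at least 2.75-fold), Mrap, an accessory protein of melanocortin receptors (at least 2.17-fold), and Prrt4 (at least 2.05-fold). Prrt4 was at 5.70, 5.59 and 5.21 against 4.30, 4.23 and 4.17, and between 8.49 and 8.91 on the 6 RCA arrays. The 5Aza LCA arrays thus lay above the saline LCA arrays and far below every RCA array. Mesenchymal and signalling genes in this set were the complement component C7 (1.64), the collagen receptor kinase Ddr1 (1.56), the guidance ligand Slit3 (1.56) and the heparan sulfate proteoglycan Sdc2 (1.44). Metabolic genes were the alcohol dehydrogenase Adh1 (1.35), the metalloreductase Steap4 (1.15), the ATP citrate lyase Acly (1.05), the dehydrogenase Dhrs7 (1.04) and the phospholipase Pla2g12a (0.97). The tRNA deaminase Adat1 (1.48), the respiratory complex III assembly factor Uqcc1 (1.43) and the membrane protein paralemmin, Palm (1.13), completed it. The values in brackets are log2 fold changes, and the adjusted p of these 15 ran from 0.00972 for Mrap to 0.0499 for Acly (limma).

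**Figure D2:**
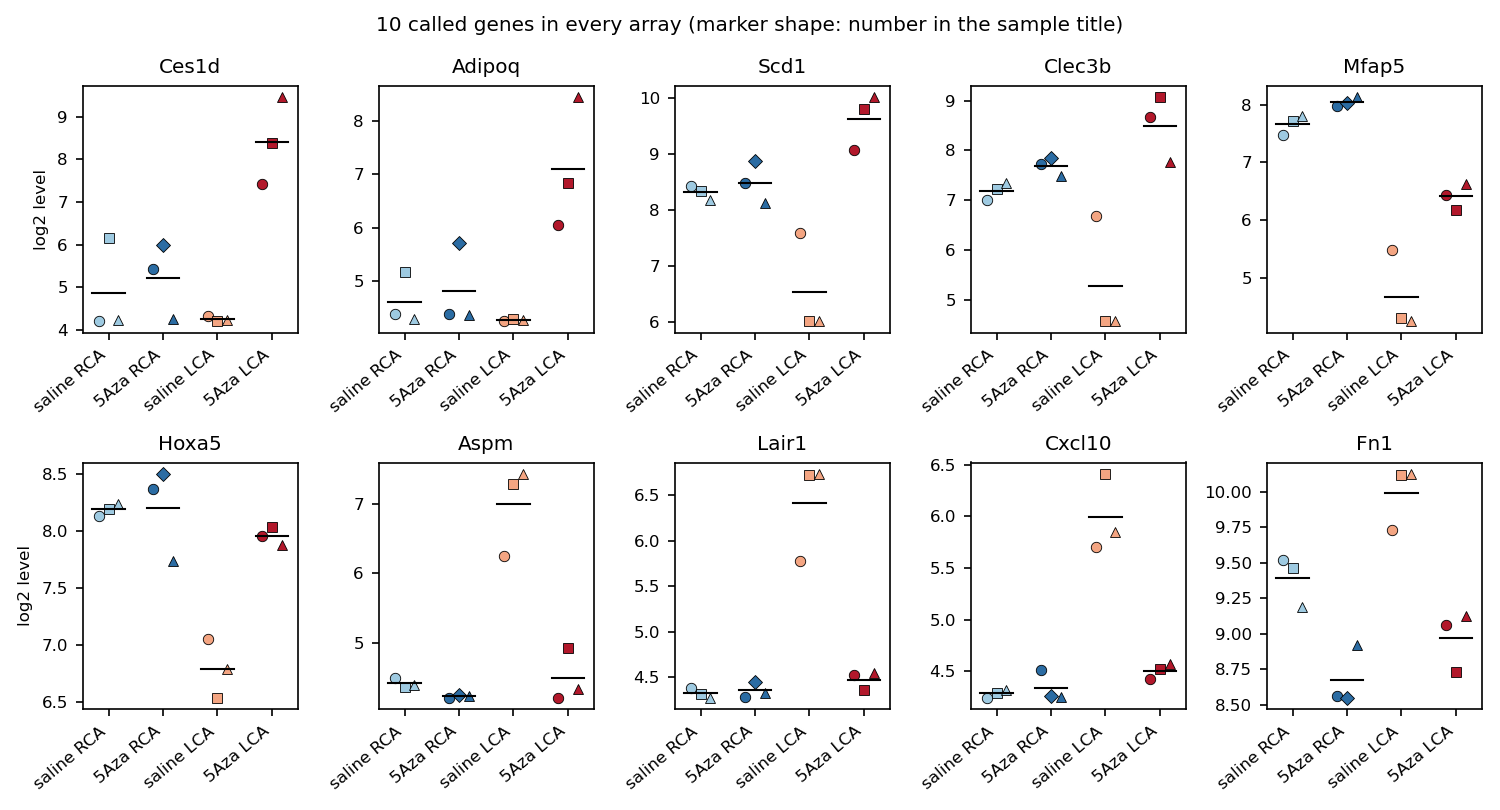
Each panel shows the log2 level of 1 called gene on the y axis in the 12 arrays, grouped on the x axis by treatment and artery; points are arrays, the marker shape is the number in the sample title and bars are group means of 3. Ces1d, Adipoq, Scd1, Clec3b, Mfap5 and Hoxa5 are higher and Aspm, Lair1, Cxcl10 and Fn1 lower in 5Aza LCA than in saline LCA, with no overlap. Saline LCA 1 (circle) is the saline LCA array nearest to the 5Aza LCA arrays for each of these genes but Adipoq.

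The decreases included genes known from leukocytes, grouped so after their values were seen. This grouping leaves out the lectin gene Cd209f, called higher at 1.66, and the macrophage marker Cd163, at 2.27 and not called. The leukocyte marker lists described below held no called gene. Lair1, an inhibitory collagen receptor of leukocytes, was at 4.52, 4.36 and 4.55 in 5Aza LCA 1, 2 and 4 and at 5.78, 6.72 and 6.73 in saline LCA 1, 2 and 4. The groups were more than 1 log2 unit apart at their nearest arrays. Lair1 fell by 1.93 (SE 0.23, limma adjusted p = 0.00972), with detection on 1 of the 3 5Aza arrays. Lilr4b, an immunoglobulin-like receptor of myeloid cells with close copies, was at 4.41, 4.30 and 5.27 against 5.77, 6.97 and 7.87 (log2 fold change -2.21, adjusted p = 0.0498). Fgr, a Src-family kinase of myeloid cells, was at 4.68, 4.32 and 4.71 against 5.64, 6.84 and 7.56 (log2 fold change -2.11, adjusted p = 0.0374). In both, saline LCA 4 was the highest and saline LCA 1 the lowest saline array. Ly86, the secreted partner of a Toll-like receptor homologue on leukocytes, was at 4.28, 4.53 and 5.10 against 5.54, 7.25 and 7.16 (log2 fold change -2.01, adjusted p = 0.0482).

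Other decreases grouped here were those of Dock10 and Dock8, exchange factors for small GTPases, and of the tyrosine kinase Fes. The T cell membrane gene Ms4a4b and the aspartic protease Napsa were placed here too. Dock10 was at 4.67, 4.41 and 4.32 against 5.26, 6.36 and 6.63 (log2 fold change -1.62, limma adjusted p = 0.0418). Dock8 fell by 1.28 (adjusted p = 0.0478). Fes was at 4.79, 4.89 and 5.09 against 6.60, 5.81 and 6.80 (log2 fold change -1.48, adjusted p = 0.0374), and for Fes the lowest saline array was saline LCA 2. Its mean in 5Aza LCA, 4.92, lay below its RCA means of 5.43 after saline and 5.37 after 5Aza. Napsa and Ms4a4b were not detected on any 5Aza LCA array and fell at least 2.29-fold and at least 2.14-fold (adjusted p = 0.0319 and 0.0319). The leukocyte phosphatase Ptpn6, outside the naming rule and named after its values were seen, fell by 1.07 (adjusted p = 0.0478).

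Cxcl10, a chemokine that attracts activated T cells, was at 4.43, 4.52 and 4.57 in 5Aza LCA 1, 2 and 4 and at 5.71, 6.42 and 5.85 in saline LCA 1, 2 and 4. The 5Aza arrays lay close together and below every saline array. It averaged 4.50 ± 0.07 against 5.99 ± 0.37 (SD, n = 3 each) and fell by 1.49 (SE 0.19, limma adjusted p = 0.00972). It was the 1 member called lower of 16 inflammation and adhesion genes, and 0 were higher, beside 0.17% and 0.293% of all genes. The list median was -0.29. Without saline LCA 1, 3 were called higher (Icam1, Selp and Cxcl12) and 4 lower (Ccl5, Cxcl10, Cxcl16 and Il1b), beside 10.9% and 8.47% of all genes. The adhesion molecule Vcam1 was at 9.07, 9.25 and 9.16 against 9.62, 9.56 and 9.21 (log2 fold change -0.30, adjusted p = 0.376), and Icam1 at 9.60, 9.57 and 9.52 against 9.68, 8.79 and 8.73 (log2 fold change 0.50, adjusted p = 0.276). Neither passed, and the groups overlapped in both. Icam1 was higher after 5Aza once saline LCA 1 was left out (0.80, adjusted p = 0.00478). The lowest log2 fold change of all genes tested was that of the cytokine Il1b, named after its values were seen, at -2.71 with an adjusted p of 0.0872.

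None of the 18 macrophage markers tested was called in either direction, beside 0.462% of all genes. Yet 17 of the 18 had a log2 fold change below 0, whereas 54.4% of all genes lay above 0. The list's median was -1.29. Aif1, a calcium-binding protein of macrophages, was at 8.71, 8.67 and 9.00 in 5Aza LCA and at 8.80, 10.41 and 10.35 in saline LCA. The groups overlapped because saline LCA 1 lay among the 5Aza arrays, and the log2 fold change of -1.06 did not pass (SE 0.39, limma adjusted p = 0.187). The smallest p in the list belonged to the fungal pattern receptor Clec7a (-1.90, adjusted p = 0.0814) and the complement genes C1qa (-2.07, adjusted p = 0.0949) and C1qb (-2.14, adjusted p = 0.102). C1qa was detected on all 3 arrays of saline LCA alone, and so entered the tests through the group where it was high. Of the 18, 14 were called lower and 1 higher without saline LCA 1, with a median of -2.06, where 8.47% and 10.9% of all genes were called lower and higher. The higher member was the scavenger receptor Cd163 (2.54, adjusted p = 0.0399), which lay at 2.27 with all samples (adjusted p = 0.123).

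The mean level of the macrophage list was 6.58, 6.54 and 7.34 in 5Aza LCA and 6.66, 8.52 and 8.73 in saline LCA. Saline LCA 1 lay within the range of the 5Aza arrays and about 2 log2 units below saline LCA 2 and 4. The RCA arrays ran from 4.31 to 5.63, below every LCA array. The part of a different number of leukocytes in the decreases of leukocyte genes was not tested. With the macrophage level of each array as a covariate 13 genes were called, 8 of them among the 49. That level was itself lower in 5Aza LCA than in saline LCA 2 and 4, so this fit cannot separate cell number from treatment. Of 4 neutrophil genes tested 0 were called, with a median of -0.89. The chemokine receptor Cxcr2 (-1.36, adjusted p = 0.105), the calprotectin subunit S100a9 (-2.64, adjusted p = 0.12) and the growth factor receptor Csf3r (-0.41, adjusted p = 0.233) had the smallest p, and these 3 were lower without saline LCA 1, beside 8.47% of all genes. Cxcr2 and S100a9 were detected on all 3 arrays of saline LCA alone, and so entered the tests through the group where they were high. Of 7 genes of dendritic cells and MHC class II, 0 were called (median -0.61). The class II genes H2-DMa (-1.44), H2-Ab1 (-0.71) and H2-Eb1 (-0.77) had adjusted p of 0.218, 0.389 and 0.436, and H2-DMa alone was lower without saline LCA 1. Of 3 T and NK cell genes tested 0 were called (Cd2 was lower without saline LCA 1), and of 4 B cell genes on the array none was bright enough to be tested.

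Among the decreases, 3 genes act in cell division. Aspm, a spindle pole protein of dividing cells, was at 4.21, 4.93 and 4.33 in 5Aza LCA 1, 2 and 4 and at 6.26, 7.29 and 7.44 in saline LCA 1, 2 and 4. No 5Aza array came near a saline array, and Aspm was detected on 1 of the 3 5Aza arrays. It fell by 2.51 (SE 0.29, limma adjusted p = 0.00972). The call held in 11 of the 12 fits that left out 1 array, more than for any other of the 49 genes. Aspm entered the tests through saline LCA alone, the group where it was high. Birc5, the mitotic regulator survivin, was at 4.37, 4.55 and 5.03 against 5.77, 7.34 and 7.17 (log2 fold change -2.11, SE 0.34, adjusted p = 0.0322). Tfdp1, the partner of E2F factors at cell cycle genes, was at 6.89, 7.06 and 7.16 against 8.30, 8.06 and 8.00 (log2 fold change -1.08, adjusted p = 0.0443). For Tfdp1, unlike Aspm and Birc5, saline LCA 1 was the highest saline array.

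Of the 18 listed cell cycle genes tested, 17 did not pass, 1 (Birc5) was called lower and 0 higher, beside 0.17% and 0.293% of all genes. All 18 had log2 fold changes below 0, whereas 54.4% of all genes lay above 0. The list's median was -1.21, and 11 of the 18 had non-overlapping groups, beside 8.02% of all genes in that direction. A total of 14 were called lower and 0 higher without saline LCA 1, beside 8.47% and 10.9% of all genes, with a median of -1.47. The mean level of the list was 5.57, 5.59 and 5.97 in 5Aza LCA and 6.03, 7.54 and 7.07 in saline LCA. The RCA arrays ran from 5.51 to 5.92, so the 5Aza LCA arrays overlapped with the unligated arteries. The cyclin-dependent kinase inhibitor Cdkn1a was at 5.33, 5.67 and 6.55 against 5.31, 6.64 and 6.86 and did not pass (log2 fold change -0.42, limma adjusted p = 0.627). Of 18 genes of p53 and DNA damage 0 were called, with a median of -0.31, and 0 were higher and 6 lower without saline LCA 1, beside 10.9% and 8.47% of all genes. Gadd45a, a growth arrest gene, was at 5.94, 5.26 and 5.81 against 7.36, 7.17 and 7.14, with no overlap and an adjusted p of 0.0745. The stress gene Sesn2 (-0.87, adjusted p = 0.0974) and the damage kinase Atm (-0.73, adjusted p = 0.137) did not pass either.

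Matrix and biosynthetic genes also appeared among the decreases. Lamc1, the gamma 1 chain of basement membrane laminins, was at 6.24, 6.18 and 7.00 in 5Aza LCA and at 7.92, 8.70 and 8.42 in saline LCA. It was detected on all 6 arrays, with no overlap, and fell by 1.87 (SE 0.32, limma adjusted p = 0.0374). B4galnt1, which synthesizes gangliosides, was at 5.25, 4.45 and 5.50 against 6.45, 7.22 and 7.52 (log2 fold change -2.00, adjusted p = 0.0478). Fn1, fibronectin, and Adss, an enzyme of AMP synthesis, are named after their values were seen. Fn1 was at 9.06, 8.73 and 9.12 against 9.73, 10.12 and 10.13 (log2 fold change -1.02, SE 0.20, adjusted p = 0.0499), and Adss fell by 1.03 (adjusted p = 0.0499). Both groups of Fn1 were tight, with SDs of 0.21 and 0.23.

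None of the genes of the DNA methylation machinery was called. The maintenance methyltransferase Dnmt1 was at 8.74, 8.70 and 9.01 in 5Aza LCA 1, 2 and 4 and at 8.70, 8.96 and 8.86 in saline LCA 1, 2 and 4. Dnmt3a was at 7.20, 7.32 and 7.30 against 7.40, 7.05 and 7.31, and Dnmt3b at 5.48, 6.28 and 6.66 against 6.43, 5.94 and 6.77. In all 3 genes the groups overlapped, with log2 fold changes of -0.02, 0.02 and -0.24 and SEs of 0.16, 0.17 and 0.29 (limma adjusted p = 0.955, 0.964 and 0.691). The sign of the first 2 turned under other scalings. Over the 13 members tested the median was -0.12, and without saline LCA 1, Zbtb33 was higher and Uhrf1 and Apobec1 lower, beside 10.9% and 8.47% of all genes. The smallest p with all samples belonged to the cytidine deaminase Apobec1 (-1.53, adjusted p = 0.105), the Dnmt1 cofactor Uhrf1 (-1.58, adjusted p = 0.19) and the methyl-CG reader Zbtb33 (0.50, adjusted p = 0.227).

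Germline genes, which promoter methylation keeps silent in body cells, were mostly below detection. Of 19 on the array only 3 could be tested, and 0 were called: the RNA-binding gene Dazl (0.18), the germ cell helicase Ddx4 (0.03) and Xlr4a (0.89) had adjusted p of 0.534, 0.947 and 0.594 (limma). The other 16 were not detected on all 3 arrays of any group and were not tested. Of 20 imprinted genes, whose parental copies differ in methylation, 0 were called, with a median of 0.20. Leaving out saline LCA 1, 6 were higher and 1 (Plagl1) lower, beside 10.9% and 8.47% of all genes. The smallest p belonged to Sgce (1.03, adjusted p = 0.207), Plagl1 (-0.69, adjusted p = 0.211) and Ndn (1.17, adjusted p = 0.23), and the groups overlapped in all 3.

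The effect of 5Aza on endothelial genes that steady flow maintains was examined as a list. Of 21 tested, 0 were called in either direction, with a median log2 fold change of 0.49. Without saline LCA 1, 13 were higher and 1 (Hmox1) lower, beside 10.9% and 8.47% of all genes, with a median of 0.82. The mean level of the list was 8.32, 8.19 and 8.24 in 5Aza LCA and 8.30, 7.59 and 7.54 in saline LCA, and every RCA array lay higher, from 8.73 to 8.83. Saline LCA 1 lay among the 5Aza LCA arrays and apart from saline LCA 2 and 4.

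The transcription factor Klf4 was at 8.11, 7.97 and 8.09 in 5Aza LCA and at 7.37, 6.25 and 6.74 in saline LCA. The groups did not overlap, but the log2 fold change of 1.27 (SE 0.30) did not pass (limma adjusted p = 0.0872). Its relative Klf2 was at 5.42, 4.98 and 5.04 against 5.15, 6.15 and 4.96, with overlap and a log2 fold change of -0.28 (adjusted p = 0.734). On the RCA arrays Klf2 averaged 7.34 after saline and 7.52 after 5Aza. The nitric oxide synthase Nos3 was at 7.38, 7.28 and 7.07 against 7.83, 6.08 and 6.00 (log2 fold change 0.61, adjusted p = 0.409), and the kallikrein Klk10 at 5.91, 5.44 and 5.54 against 6.50, 4.26 and 4.24 (log2 fold change 0.63, adjusted p = 0.494). In both, saline LCA 1 was the highest of the 6 arrays and saline LCA 2 and 4 the lowest. Leaving out saline LCA 1 made Nos3 higher by 1.20 (adjusted p = 0.000975), Klk10 by 1.38 (adjusted p = 0.000761) and Klf4 by 1.56 (adjusted p = 0.00289), whereas Klf2 did not pass (-0.41, adjusted p = 0.547). The water channel Aqp1 and the monooxygenase Cyp1b1 had the smallest p of the list. Aqp1 was at 11.47, 11.26 and 11.41 against 10.67, 10.36 and 10.64 (log2 fold change 0.83, adjusted p = 0.0759), and Cyp1b1 at 8.68, 8.71 and 8.79 against 8.15, 5.74 and 5.86 (log2 fold change 2.15, adjusted p = 0.084), both without overlap.

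General endothelial markers had a median close to that of all genes. Of 23 tested, 0 were called, the median was 0.14, and the list's mean level was 8.38, 8.48 and 8.63 against 8.43, 8.60 and 8.52. Leaving out saline LCA 1, 6 were higher and 3 lower (Fli1, Flt1 and Robo4), beside 10.9% and 8.47% of all genes. The VEGF receptor Flt1 was at 4.48, 4.93 and 6.29 against 7.02, 7.94 and 7.22 (log2 fold change -2.16, limma adjusted p = 0.117). The clotting factor gene Vwf (0.62, adjusted p = 0.125) and the adhesion molecule Icam2 (0.54, adjusted p = 0.166) lay in the other direction, and all 3 genes had groups that did not overlap.

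Of 10 smooth muscle genes 0 were called, with a median of -0.69, and without saline LCA 1, 4 were lower (Actg2, Cald1, Mylk and Myocd), beside 8.47% of all genes. Smooth muscle actin Acta2 was at 10.43, 10.72 and 10.17 against 11.03, 11.18 and 11.08 (log2 fold change -0.66, limma adjusted p = 0.138), with no overlap. Enteric actin Actg2 (-1.58, adjusted p = 0.105) and the coactivator Myocd (-1.04, adjusted p = 0.173) did not pass either. Erythroid and platelet genes varied between arrays: the mean level of the 7 tested was 9.24, 8.30 and 7.71 in 5Aza LCA, 6.07, 7.71 and 7.68 in saline LCA, and from 4.89 to 7.63 in RCA. Their median was 1.98, and 0 were called with all samples or without saline LCA 1. The alpha globin gene Hba-a1, which has an identical copy, was at 10.38, 9.10 and 8.39 against 5.30, 8.02 and 8.11 (adjusted p = 0.261). The platelet genes Ppbp (2.08, adjusted p = 0.194) and Gp9 (0.45, adjusted p = 0.252) did not pass. The part of residual blood in other results was not tested. Of 9 skeletal muscle and 9 nerve markers on the array 1 each was tested, and neither was called, although the nerve marker Pmp22 was higher without saline LCA 1.

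**Figure D3:**
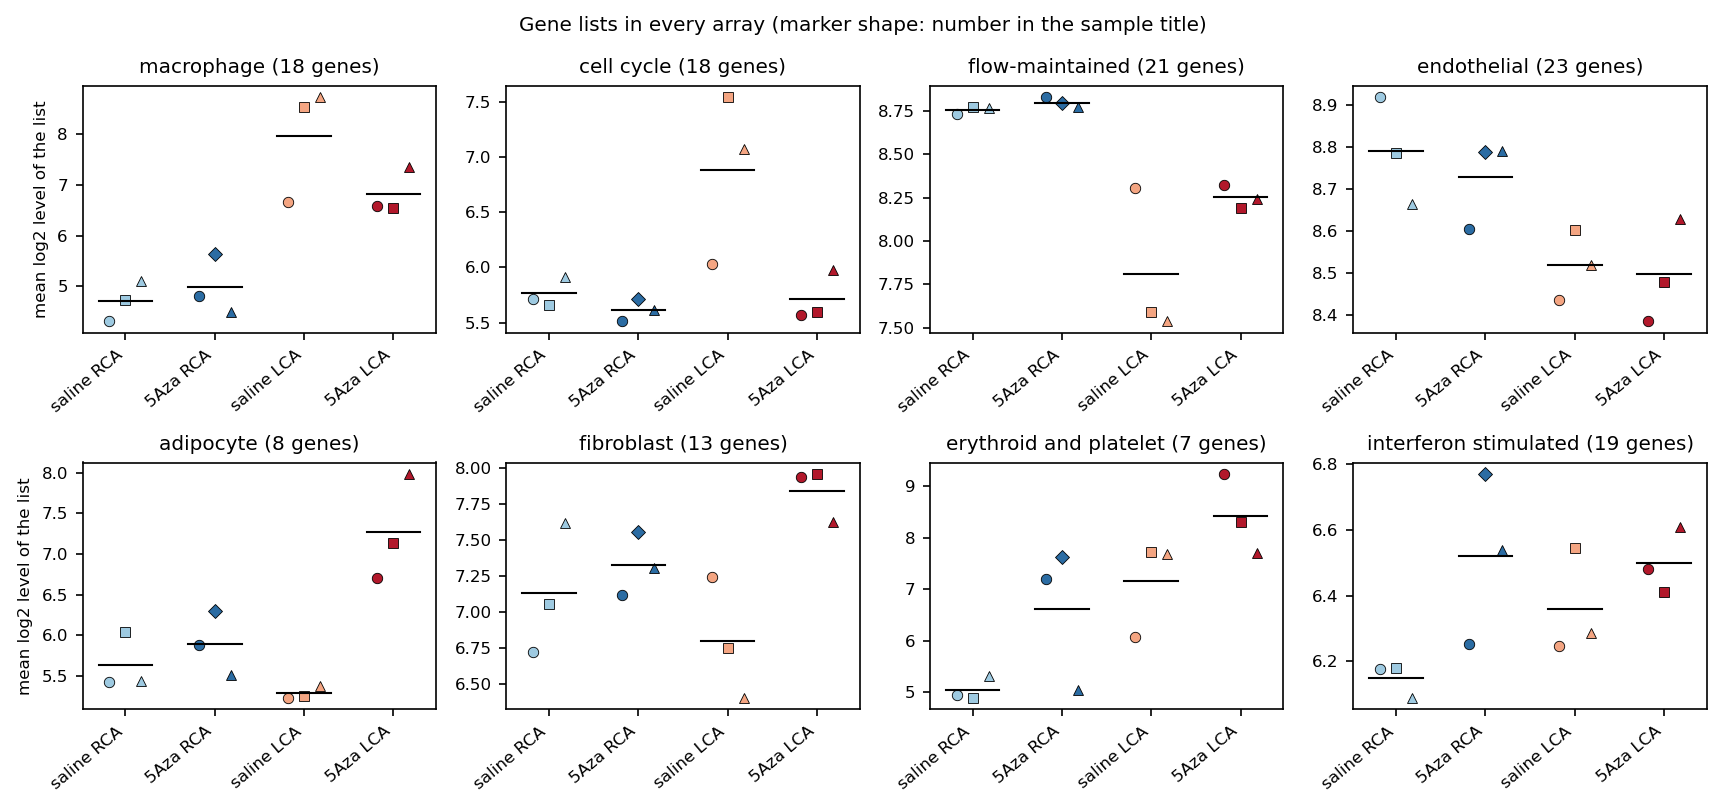
Each panel shows the mean log2 level of the tested genes of 1 list on the y axis in the 12 arrays, grouped on the x axis by treatment and artery; points are arrays, the marker shape is the number in the sample title and bars are group means of 3. Saline LCA 1 (circle) lies among or next to the 5Aza LCA arrays in the macrophage, cell cycle and flow-maintained panels, and in the adipocyte panel all 3 saline LCA arrays lie between 5.23 and 5.38, below all 5Aza LCA arrays.

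The remaining lists held no called gene. Of 19 interferon-stimulated genes the median was 0.19, and the antiviral genes Usp18 (0.79, limma adjusted p = 0.23), Ifih1 (0.42, adjusted p = 0.301) and Ifit3 (0.68, adjusted p = 0.327) had the smallest p. Without saline LCA 1, 3 were higher (Ifih1, Ifit1 and Ifit3) and 1 (Oas2) lower, beside 10.9% and 8.47% of all genes. In the RCA the list's median was 0.38, and 6 of the 19 were higher after 5Aza on every array than on any saline array, beside 7.38% of all genes there.

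Of 18 oxidative stress genes the median was -0.32, with 2 higher (Cat and Sod3) and 6 lower without saline LCA 1, beside 10.9% and 8.47% of all genes. The phagocyte oxidase genes Ncf4 (-1.44, limma adjusted p = 0.0814) and Ncf1 (-0.95, adjusted p = 0.0974) and the haem oxygenase Hmox1 (-2.04, adjusted p = 0.133) had the smallest p. Hmox1 was at 5.18, 4.34 and 4.42 against 4.73, 7.18 and 8.15, with saline LCA 1 among the 5Aza arrays. Of 19 collagen genes the median was 0.20, with 4 higher (Col4a3, Col4a4, Col6a1 and Col14a1) and 3 lower (Col4a2, Col8a1 and Col18a1) without saline LCA 1, beside 10.9% and 8.47% of all genes. Col8a1, a collagen of activated vessel walls, was at 8.89, 8.50 and 9.42 against 9.54, 11.58 and 11.25, with no overlap (log2 fold change -1.85, adjusted p = 0.089). The basement membrane collagen Col4a4 (1.14, adjusted p = 0.0837) and Col6a1 (1.16, adjusted p = 0.109) lay in the other direction.

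Of 15 matrix metalloproteinases and their inhibitors the median was 0.31, with 3 higher (Mmp3, Timp2 and Timp3) and 3 lower (Mmp2, Mmp13 and Mmp14) without saline LCA 1, beside 10.9% and 8.47% of all genes. The inhibitor Timp3 was at 10.72, 10.38 and 10.65 against 10.36, 8.60 and 8.56, with no overlap (log2 fold change 1.41, limma adjusted p = 0.105), the inhibitor Timp2 lay at 0.51 (adjusted p = 0.142) and the membrane protease Mmp14 at -1.23 (adjusted p = 0.161). Of 12 Notch genes the median was -0.08. The Notch target Hey1 was at 4.83, 5.51 and 5.84 against 5.05, 8.75 and 8.50, where saline LCA 1 lay among the 5Aza arrays and more than 3 log2 units below the other saline arrays. Hey1 did not pass with all samples (-2.04, adjusted p = 0.193), and it was lower without saline LCA 1 (-3.23, adjusted p = 0.000268). The ligand Dll4 (-0.60) and the receptor Notch4 (-0.58) had adjusted p of 0.269 and 0.289, and Dll4 too was lower without saline LCA 1 (-0.97, adjusted p = 0.00518). In that fit these 2 Notch genes were lower and 0 higher, beside 8.47% and 10.9% of all genes.

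Of 20 TGF-beta and BMP genes the median was 0.03, with 5 higher (Bmp4, Bmp6, Bmpr2, Smad3 and Smad7) and 1 (Smad5) lower without saline LCA 1, beside 10.9% and 8.47% of all genes. The inhibitory Smad7 (0.95, limma adjusted p = 0.119), the receptor Bmpr2 (0.76, adjusted p = 0.164) and Smad3 (0.54, adjusted p = 0.271) had the smallest p. Of 13 cholesterol genes the median was 0.18. The scavenger receptor Cd36, a fatty acid transporter of fat cells, macrophages and capillary endothelium, was at 7.47, 7.72 and 8.95 against 4.80, 6.02 and 6.99, with no overlap (log2 fold change 2.11, adjusted p = 0.125). The farnesyl diphosphate synthase Fdps lay at -1.18 (adjusted p = 0.105) and the cholesterol exporter Abca1 at 0.45 (adjusted p = 0.281). Both passed without saline LCA 1, Fdps at -1.52 (adjusted p = 0.0047) and Abca1 at 0.67 (adjusted p = 0.0263), where 2 of the 13 were higher (Abca1 and Srebf1) and 2 lower (Fdps and Idi1), beside 10.9% and 8.47% of all genes. Lysosomal and cathepsin genes (19 tested, median -0.24), immediate early genes (15, -0.13), glycolytic genes (15, -0.13), respiratory chain genes (23, 0.18) and ribosomal protein genes (15, -0.04) are described by counts alone. Without saline LCA 1, the lysosomal list had 1 higher (Lamp2) and 2 lower (Grn and Psap), the immediate early list 1 higher (Fosb), the glycolytic list 2 lower (Pgk1 and Slc2a3), the respiratory chain list 1 higher (Ndufs1) and the ribosomal list 1 lower (Rps6), beside the same 10.9% and 8.47% of all genes.

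The same drug comparison in the unligated artery, 5Aza RCA against saline RCA, shares no sample with that in the ligated artery. Both use the same estimate of spread per gene, and whether LCA and RCA pools came from the same mice is not known. None of the 10596 genes was called there (0%), with 604 at an unadjusted p under 0.05 and a smallest limma adjusted p of 0.0853. Of the 31 genes that rose in the LCA, 25 had a log2 fold change above 0 in the RCA, where 51.2% of all genes did, and their median there was 0.14, beside 1.64 in the LCA. Of the 18 that fell, 10 were below 0 in the RCA, and their median was -0.05, beside -1.55. All 49 changes were smaller in size in the RCA. The 49 genes were chosen by their LCA values, so smaller RCA changes would tend to follow from that choice alone.

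Groups did not overlap in the RCA, in the direction seen in the LCA, for 8 of the 49, where 7.38% of all genes did so in the higher and 6.17% in the lower direction. These were Clec3b, Mfap5 and Adat1 among the increases and Aspm, Birc5, Tfdp1, Adss and Fn1 among the decreases. Fn1 was at 8.56, 8.55 and 8.92 in 5Aza RCA 1, 3 and 4 and at 9.52, 9.46 and 9.19 in saline RCA 1, 2 and 4 (log2 fold change -0.71). Tfdp1 was at 7.24, 6.82 and 6.67 against 7.36, 7.72 and 7.69 (log2 fold change -0.68). In both genes the 5Aza arrays lay below the saline arrays in either artery. Abi3bp had the largest RCA difference of the 49, 1.26, with levels of 7.59, 8.15 and 6.97 against 5.77, 6.05 and 7.11 and overlap. Ces1d and Adipoq had RCA log2 fold changes of 0.36 and 0.20, with groups that overlapped. Both were highest there on saline RCA 2 and 5Aza RCA 3, at 6.17 and 5.99 for Ces1d and 5.17 and 5.72 for Adipoq.

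Whether the drug effect differed between the arteries was tested as the difference of both effects. No gene was called (0%), with 1009 at an unadjusted p under 0.05, and 1016 were called without saline LCA 1. For 45 of the 49 genes the unadjusted p of the difference was under 0.05, and the smallest adjusted p among them was 0.203 (limma), so none was shown to respond differently in the ligated artery with all samples. The difference contains the LCA effect by which the 49 were chosen, so the count of 45 is not independent evidence. The 49 genes are set against their RCA values in the plot of fold changes in both arteries.

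**Figure D4:**
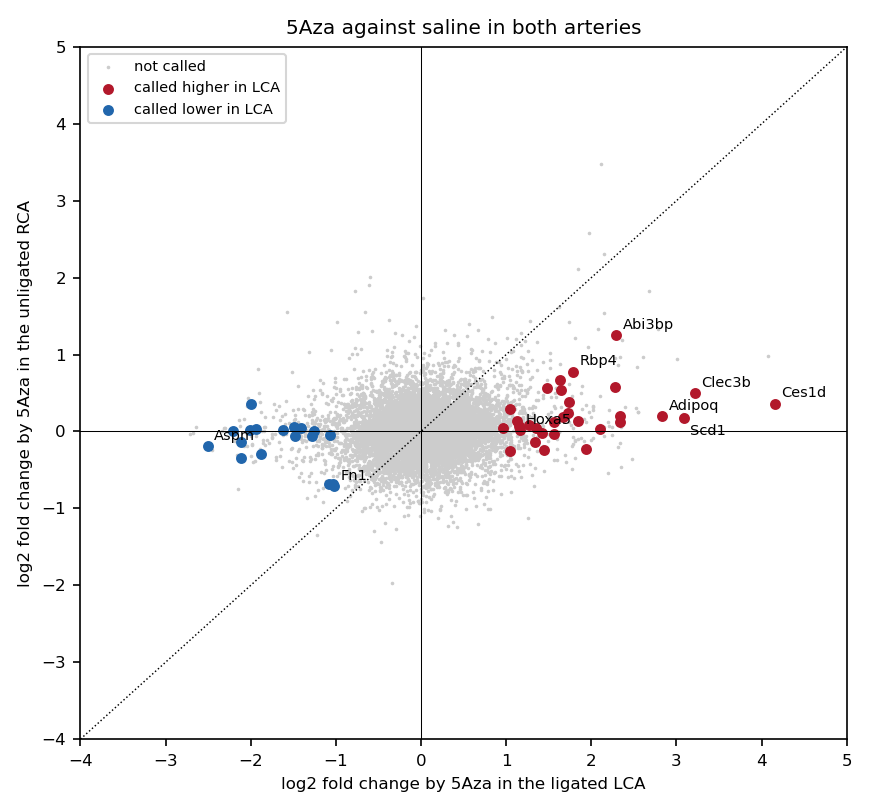
Each point is 1 of the 10596 genes, with the log2 fold change by 5Aza in the ligated LCA on the x axis and in the unligated RCA on the y axis; red and blue points are the 31 and 18 genes called in the LCA, and the dotted line marks equal change. The called genes, chosen by their LCA values, lie near the horizontal axis. Their median RCA change was 0.14 for the higher and -0.05 for the lower ones, and Fn1, Adss and Tfdp1 lie nearest to the dotted line.

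How many genes were called depended on single arrays. Among the compared arrays, leaving out saline LCA 1 gave 2051 genes, saline LCA 2 gave 4 and saline LCA 4 gave 0. Leaving out 5Aza LCA 1 gave 23, 5Aza LCA 2 gave 2 and 5Aza LCA 4 gave 18. The RCA arrays enter through the shared estimate of spread, and leaving out saline RCA 1, 2 or 4 gave 12, 11 and 12, while 5Aza RCA 1, 3 or 4 gave 20, 32 and 16. Counts within lists followed, so that no list kept a call without saline LCA 4. All 49 genes kept their sign in each of the 12 fits, which was fixed in advance because their groups did not overlap. Calls that held in at least 8 of the 12 were those of Aspm (11), Cxcl10 (10), Cd209f (10), Mrap (10), Lair1 (9), Scd1 (9), Steap4 (9), Thrsp (9), Ces1d (8) and Prrt4 (8). Aspm and Lair1 were detected on all 3 arrays of saline LCA alone, and Cd209f, Mrap, Steap4, Thrsp and Ces1d of 5Aza LCA alone. These genes entered the tests through the group where they were high, so their counts are not independent of the filter. Among genes detected on all 12 arrays, 1 was called (Scd1). The root mean variance of a gene was 0.512 in saline LCA, 0.373 in 5Aza LCA, 0.333 in saline RCA and 0.356 in 5Aza RCA. The model shares 1 spread per gene over the 4 groups, so the SE of the comparison rests in part on the RCA arrays. With only the 6 compared samples fitted, 0 genes were called.

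**Figure D5:**
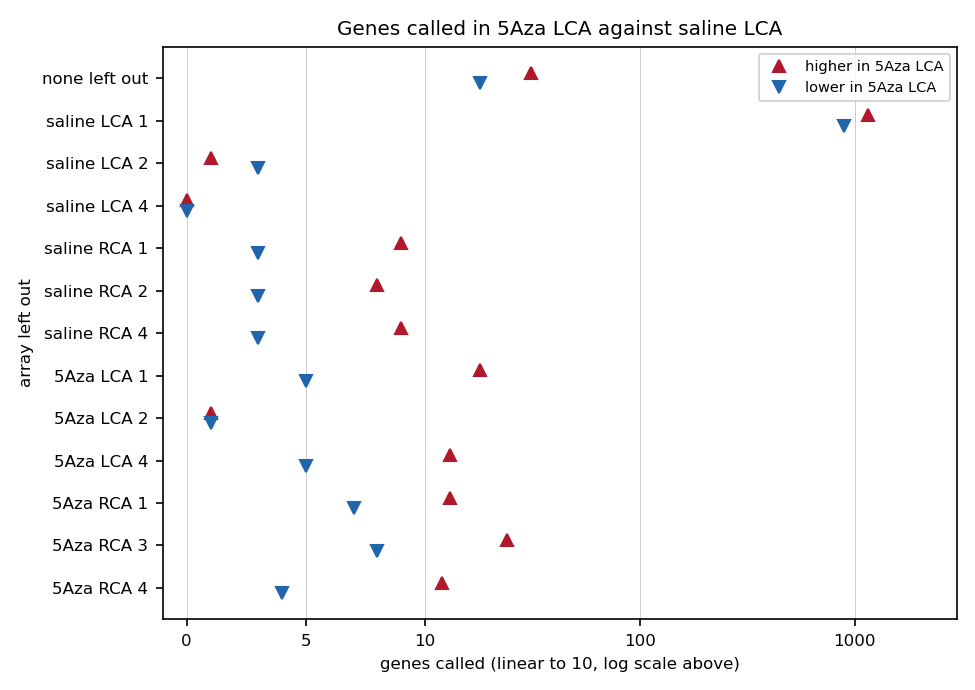
The number of genes called in 5Aza LCA against saline LCA (x axis, linear to 10 and logarithmic above) is shown for the fit with all 12 arrays and for the 12 fits that each left out the array named on the y axis, as upward triangles for genes higher and downward triangles for genes lower after 5Aza. Leaving out saline LCA 1 gave 1154 higher and 897 lower genes, and leaving out saline LCA 4 gave 0 and 0.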

How the data were processed

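The data were Illumina mouse bead array measurements of 12 samples in 4 groups of 3. The deposited tables held, per the file headers, unnormalized probe intensities with detection p-values, and the submitters' processing notes name GenomeStudio 2010.3 as the tool that exported them. Those p-values compare a probe with the negative control beads of its array. A further deposited table of normalized intensities, which the values show to be quantile normalized by the authors on a linear scale, served as an alternative. Other steps were not given in the sources used here.

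From the unnormalized intensities, levels were computed with limma 3.58.1 in R 4.3.3: background correction by normexp with an offset of 16, the negative control mean and spread being estimated through the detection p-values, quantile normalization and log2. Of 45281 probes, 21979 had a detection p under 0.05 on all 3 arrays of at least 1 group. A probe could thus enter the tests through a single group in which its gene was high. Through the platform annotation, 34885 probes had 1 gene symbol, 18 several and 10378 none, and 34807 matched RefSeq gene IDs. The brightest of a gene's probes was kept, which mattered for 4659 of the 10596 genes tested. A linear model with 4 group means (lmFit and eBayes, two-sided) was fitted to all 12 arrays, and p-values were adjusted by Benjamini-Hochberg over all genes within each comparison. No batch per sample was given.

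A gene was called at an adjusted p under 0.05. A gene undetected on all arrays of its dimmer group has a fold given as a lower bound: the brighter group's mean against the dimmer group's mean of, per array, the higher of the gene's own signal and the lowest signal among detected probes. This bound allows for the undetected signal and not for the spread between arrays. The genes named were the 15 called genes without overlap that rose most and the 15 that fell most, up to 4 called members of a list or else up to 3 with the smallest p, and 13 genes named in every case, of which Ccl2 could not be tested. Lists described by counts alone have no named members, and the genes given by name only beside counts without saline LCA 1 lie outside this rule. The members and the lists were chosen with earlier results of these data known. Data were simulated with independent arrays and, per gene, 1 spread shared by the 4 groups. In this comparison 43% of genes shifted by log2 1 and 91% of those shifted by log2 2 were then called. Among 10396 unshifted genes there were 9 calls. The wider spread of saline LCA (0.512, against 0.373 in 5Aza LCA) and its array that stood apart were not simulated, so these shares may not hold for the measured data. Figures were drawn with matplotlib 3.10.9. Promoter sequences were taken from RefSeq (GRCm38.p6).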

Additional observations from a re-analysis of the deposited data

Results flagged for a closer look

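Of the 3829 detected probes without a gene symbol, which the comparison of genes leaves out, 3 passed an adjusted p under 0.05 in 5Aza LCA against saline LCA (limma, adjusted over all 21979 detected probes). Of these 3, 2 were higher and 1 was lower after 5Aza, and over all detected probes 42 passed (0.191%). They have no gene name here.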

How the results depend on the processing

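With 3 pools a group, precision is limited by the number of arrays and by the spread of the saline LCA group, and dim genes near background have compressed fold changes. The 49 calls (31 higher, 18 lower) became 58 with the authors' deposited normalized values and 58 without background correction (31 of the 49 shared in each). Both of these settings gave equal counts and an equal median of all genes, so they are not separate checks. There were 48 calls with a larger offset, 43 with 75th percentile scaling and 54 with cyclic loess. The mean of a gene's probes gave 58, and every probe by itself 42. Under the scaling and background settings among these the median of all genes lay between 0.0188 and 0.0825. Larger shifts followed from other choices, whose cause was not tested: 20 genes (9 higher, 11 lower, 13 of the 49 among them) with no detection filter, 1 (1 higher, Scd1, and 0 lower) among genes detected on all 12 arrays, which leaves out genes absent from a group, 104 (61 and 43) with a trended, robust variance prior, 2254 (1290 and 964, all 49 among them) with array weights, and 0 when only the 6 compared samples were fitted, which have 4 residual degrees of freedom. The replicate block, the title number as a term, also gave 0 (0 higher, 0 lower). The title numbers differ from the description's for some samples, and whether they mark paired samples is not known. Deviations of same-numbered saline LCA and 5Aza LCA samples, from mice of different treatment, correlated at 0.0848, -0.0913 and 0.147. Those of same-numbered LCA and RCA samples correlated at 0.056, 0.047 and 0.033 under saline and at 0.0182 and -0.0276 under 5Aza. Correlations over so few arrays cannot settle the pairing. The macrophage level as a covariate left 13 (9 and 4), and the adipocyte level, chosen after seeing the data, left 0 (0 and 0). Leaving out single arrays gave 0 to 2051 calls (0 to 1154 higher, 0 to 897 lower). The highest counts came without saline LCA 1 and the 0 without saline LCA 4, and the 4 calls without saline LCA 2 were Aspm, Cxcl10, Fes and Mrap, the 2 without 5Aza LCA 2 Aspm and Cd209f. In the RCA, where 0 genes were called, 1 was with the trended, robust prior, and leaving out single arrays gave 0 to 1, with 1 without saline LCA 1 and 1 without 5Aza RCA 3. The difference between arteries, with 0 calls, gave 1 with no filter, 1 with the trended, robust prior, 847 with array weights and 0 to 1016 on leaving out single arrays, with 1016 without saline LCA 1.

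All 49 called genes kept their sign in every fit that left out an array, which their non-overlapping groups fixed in advance. Over all alternatives only Adipoq turned. With the adipocyte covariate the log2 fold change turned to -0.63 for Adipoq, -1.01 for Cd163, -1.16 for Cd36, -0.34 for Ddx4, -1.36 for Fabp4, 0.31 for Klf2 and -2.35 for Xlr4a. The macrophage covariate turned it to 0.28 for Cdkn1a, 0.10 for Dnmt1, -0.0792 for Dnmt3a, 0.043 for H2-Ab1, -0.24 for Klk10 and -0.0665 for Nos3. It was 0.0459 for Dnmt1 with 75th percentile scaling, -0.0185 with cyclic loess and -0.36 with the mean of probes for Dnmt3a, and -0.0468 for Ddx4 with array weights. On leaving out single arrays it ran from -0.0728 to 0.18 for Ddx4, -0.12 to 0.0371 for Dnmt1, -0.0808 to 0.0951 for Dnmt3a, -0.50 to 0.0882 for Dnmt3b and -0.51 to 0.0890 for Klf2. None of these genes but Adipoq was called. Of the 1292 values of called genes under the alternatives 709 no longer passed the threshold. The deposited values and the fit without background correction, which gave equal counts, both enter these 1292. Of 448 list medians 29 moved by more than the spread between replicates.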
